A study of Mus musculus with 16 samples.

Results

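H3K27Ac, acetylation of lysine 27 of histone H3, was compared between 5 hepatocellular carcinoma (HCC) samples and 5 inflamed livers of Mdr2-/- mice by chromatin immunoprecipitation and sequencing. The samples were chosen by their labels and are 10 of the 16 samples of the series, of which 15 have a peak list. All 10 mice were of the strain FVB.129P2-Abcb4tm1Bor/J, which lacks Mdr2 (Abcb4) in every cell, and all received clodronate liposomes (50 μg per g of body weight, 48 h), which remove macrophages. Inflamed livers came from mice of 7 to 8 months and nodules from mice of 14 to 19 months, so that tumour and age cannot be told apart. The study used males and females, and the labels do not give the sex of an animal. Each library came from a different animal and was made with 5 μg of antibody, and the number of nodules pooled in an HCC library is not given in the sources used here. Another 5 lists, from wild-type (WT) livers of 14 to 19 months under the same clodronate treatment, were used only to ask whether a changed region also had a peak in WT liver.

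Mdr2 is the hepatocyte transporter that moves phospholipid into bile. Without it, bile injures the ducts and the liver becomes chronically inflamed, and hepatocellular tumours appear late in life. H3K27Ac marks active promoters and enhancers, and stretches of many adjoining acetylated elements form broad domains at strongly expressed genes. In bulk tissue, a mark carried by fewer cells and a weaker mark in every cell cannot be told apart.

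Each library is a list of peaks, with their positions in the mm9 build and no read counts, so the depth behind a list is unknown and the values compared are the presence of a peak and the length of genome under peaks. The peaks of the 10 lists on chromosomes 1 to 19 were merged into 54741 regions. Inflamed livers had 37602 ± 1756 peaks and HCC samples 32848 ± 6914 (SD, n = 5 each; exact permutation test, two-sided, adjusted p = 0.333). The genome under peaks was 145 ± 9.17 Mb in inflamed livers and 142 ± 32.1 Mb in HCC (SD, n = 5 each; exact permutation test, adjusted p = 0.873). Animal 124711 had the shortest HCC list and animal 123390 the widest peaks, and many calls that an animal changed are given below with and without it. In the study, a plot of how its H3K27Ac samples group left some out as outliers without naming them. All 10 were kept here. Without a gene annotation of the mm9 build, regions are named by position, the tissue could not be checked against its marker genes, and genes are named at only 4 loci.

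Regions with a peak in all 10 animals held most of the acetylated genome in both groups, and their covered length was spread more widely among the nodules than among the inflamed livers. There were 13161 such shared regions, 24.0% of all merged regions. They covered 87.7, 82.6, 88.1, 81.3 and 90.4 Mb in the 5 inflamed livers. In the HCC samples they covered 69.1 Mb in animal 124711, 91.1 Mb in 125278, 94.0 Mb in 125279, 90.1 Mb in 123206 and 110 Mb in 123390. The nodules thus held both the lowest and the highest value, and the group means of 86.0 ± 3.84 and 90.9 ± 14.7 Mb did not differ beyond this spread (SD, n = 5 each; two-sided exact permutation test, adjusted p = 0.611 over 4 measures).

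**Figure D1:**
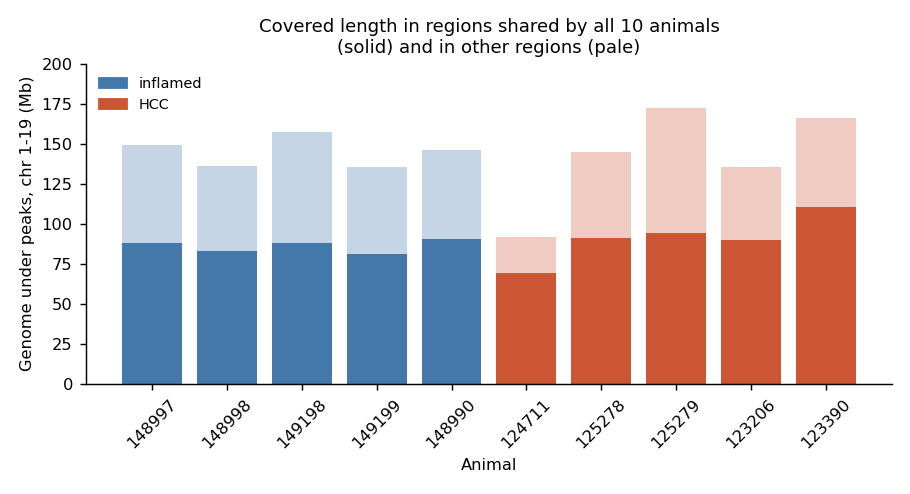
Length of genome under H3K27Ac peaks on chromosomes 1 to 19 in Mb (y axis) for each animal (x axis), split into the 13161 regions with a peak in all 10 animals (solid) and all other regions (pale), for inflamed livers (blue) and HCC samples (red). The solid bars lie between 81.3 and 90.4 Mb in inflamed livers and between 69.1 and 110 Mb in HCC.

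Per shared region, the median covered length was 4380 ± 223 bp in the inflamed group and 4577 ± 827 bp in HCC (SD over 5 animals each; exact permutation test, adjusted p = 0.611). A shared region was covered by 1.35 ± 0.0364 separate peaks in inflamed livers and 1.29 ± 0.122 in HCC (SD, n = 5 each; exact permutation test, adjusted p = 0.611). Shared regions took up 59.4 ± 2.23% of the covered length of inflamed livers and 65.2 ± 7.61% of that of HCC samples (SD, n = 5 each; exact permutation test, adjusted p = 0.540). Without HCC animal 125279, which had the lowest share of all 10 animals at 54.5%, the adjusted p was 0.0317 by the same exact permutation test. Without any other 1 animal it was 0.270 to 0.937.

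Region by region, the SD of the covered length among animals, on the log2 scale, had a median of 0.119 in inflamed livers and 0.334 in HCC. It was larger in HCC at 91.0% of the shared regions. The direction of the deviation went with the animal. In 124711 the median shared region was narrower than the inflamed mean by a log2 ratio of -0.24, and 58.9% of regions were narrower than in every inflamed liver. In 123390 the median log2 ratio was 0.26, and 64.9% of regions were wider than in every inflamed liver. The other nodules, 125278, 125279 and 123206, lay between them, with median log2 ratios of 0.021, 0.073 and 0.086.

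Broad peaks showed the same unevenness. Peaks of 10000 bp or more held 14.2, 11.8, 14.5, 11.5 and 16.8% of the covered length in the inflamed livers. They held 12.8% in HCC animal 124711, 16.8% in 125278, 17.6% in 125279, 20.4% in 123206 and 39.4% in 123390. The means were 13.8 ± 2.15% and 21.4 ± 10.4%, with 1 nodule inside the inflamed range and another far above the rest (SD, n = 5 each; two-sided exact permutation test, p = 0.0635, adjusted p = 0.254 over 4 measures). Without HCC animal 124711 the adjusted p was 0.0317 by the exact permutation test. Without any other 1 animal it was 0.127 to 0.508. The highest was without 123390, where the difference fell from 7.61 to 3.11 percentage points.

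Single shared regions changed width in both directions, and more of those called widened than narrowed in the nodules. Covered length was greater in HCC at 70 shared regions (0.532% of the 13161 tested) and smaller at 28 (0.213%), by limma's moderated test on log2 covered length at an adjusted p below 0.05. The regions called wider had a median covered length of 4102 bp in the inflamed group and 9262 bp in HCC, and those called narrower 8051 bp and 3784 bp. Over all shared regions the median log2 difference was 0.036, with quartiles of -0.10 and 0.17, and 57.5% of differences were above 0. These values were not centred, so a list that is wider throughout enters every region. Centred on each animal's median, the median log2 difference was -0.0086, with 84 regions called wider and 41 narrower. At an unadjusted limma p below 0.05, 872 were then wider and 879 narrower, against 1067 and 459 uncentred. In each of the 98 called regions the 5 HCC values did not overlap the 5 inflamed values. Among all shared regions, every HCC value was above every inflamed value at 399 (3.03%) and below at 196 (1.49%).

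The numbers called depended on the animals included. Without HCC animal 124711, 477 regions were called wider and 85 narrower among 16235 shared regions. Without HCC animal 125279 the counts were 109 and 56. Without inflamed animals 148997, 148998, 149198 or 149199 in turn they fell to between 31 and 38 wider and between 5 and 8 narrower, and without HCC animal 123390 there were 85 wider and 55 narrower.

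The region with the largest widening lay on chromosome 2 (chr2:84721083-84738913). Peaks covered 1602, 1271, 1263, 1374 and 1766 bp of it in the inflamed livers, and 4983, 5218, 5162, 10748 and 11875 bp in HCC animals 124711, 125278, 125279, 123206 and 123390. The difference was 2.28 ± 0.266 (log2, SE; limma, adjusted p = 0.00568). The first 3 of these nodules thus held about equal lengths and the other 2 more, and all 5 WT livers also had a peak there. Without HCC animal 123390, no region here was shared by all remaining animals, so the difference was not tested.

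At chr16:20408390-20427740 the inflamed livers held 3117 to 3913 bp and the HCC samples 7381, 17508, 14464, 18171 and 15321 bp in the same order of animals, a log2 difference of 1.95 ± 0.228 (SE; limma, adjusted p = 0.00568). Here 124711 was the lowest nodule and the other 4 were alike, and a single WT liver had a peak. Leaving out 125278 or 123206, which rebuilds the merged region from the remaining lists, gave log2 differences of 0.21 and 0.084 (limma, adjusted p = 0.798 and 0.902). At chr4:137290729-137309084 the inflamed livers held 2538 to 3222 bp and the nodules 6350 to 17602 bp (log2 difference 2.05 ± 0.269, SE; limma, adjusted p = 0.00844).

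The remaining widened regions of the 5 with the largest differences were chr7:150672898-150690765 and chr14:31368810-31388381. The first rose from 1893 to 2634 bp in inflamed livers to 5993 to 16515 bp in HCC (log2 difference 2.12 ± 0.274, SE; limma, adjusted p = 0.00844), and without HCC animal 123390 its log2 difference was 0.73 (limma, adjusted p = 0.159). By the longest peak of each animal it was 1.32 (limma, adjusted p = 0.228). The second held 3124 to 3507 bp in the inflamed group. In HCC it held 18264, 17755 and 19572 bp in animals 124711, 125278 and 123206 but 6478 and 7247 bp in 125279 and 123390 (log2 difference 1.92 ± 0.320, SE; limma, adjusted p = 0.0225), and its adjusted p was 0.0591 to 0.0834 without any 1 of the 5 inflamed livers.

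**Figure D2:**
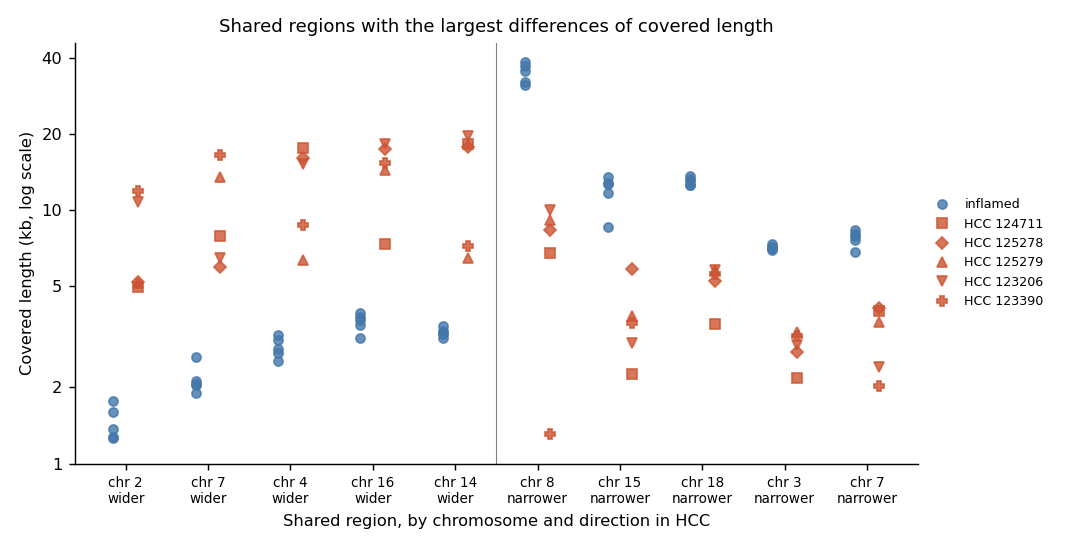
Covered length in kb on a log scale (y axis) of the 5 shared regions with the largest widening and the 5 with the largest narrowing in HCC (x axis, by chromosome), 1 point per animal, with inflamed livers as blue circles and each HCC animal as its own red symbol. The groups do not overlap in any of the 10 regions, and on chromosome 14 the nodules fall between 6478 and 19572 bp.

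Among the 5 narrowed regions with the largest differences, chr8:59786268-59824885 was the widest in inflamed livers and shrank the most. It held 37064, 31984, 38618, 35383 and 31084 bp in the inflamed livers and 6764, 8347, 9161, 9979 and 1306 bp in HCC animals 124711, 125278, 125279, 123206 and 123390 (log2 difference -2.57 ± 0.488, SE; limma, adjusted p = 0.0454). In 123390, the animal with the broadest peaks elsewhere, the least was left. The adjusted p was 0.0909 to 0.139 without any 1 inflamed liver and 0.0632 without HCC animal 125278.

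Of these 5 regions, chr3:51511011-51518389 had the smallest error. The inflamed livers held 6969, 7076, 7379, 7083 and 7135 bp, and the HCC samples 2177, 2765, 3293, 2941 and 3197 bp in the same order of animals (log2 difference -1.32 ± 0.118, SE; limma, adjusted p = 0.00148). Each nodule thus kept less than the lowest inflamed value, and this region lies within a run of lost regions described below. At chr18:24257824-24272277 the inflamed livers held 12554 to 13654 bp and the nodules 3555 to 5792 bp (-1.35 ± 0.146, log2, SE; limma, adjusted p = 0.00389). In lists of equal length its log2 difference was -0.999 (limma, adjusted p = 0.102), and with only the longest peak of each animal it was -1.11 (limma, adjusted p = 0.263).

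The other narrowed regions with the largest differences were chr15:25366904-25380716, with 8590 to 13557 bp in the inflamed group and 2250 to 5879 bp in HCC (log2 difference -1.73 ± 0.238, SE; limma, adjusted p = 0.0100), and chr7:17458848-17467313, with 6819 to 8363 bp and 2019 to 4111 bp (-1.32 ± 0.202, SE; limma, adjusted p = 0.0166). The last had an adjusted p of 0.0548 to 0.0633 without inflamed animals 148997, 148998, 149198 or 149199 in turn, and its log2 difference was -0.88 both in equal lists and by the longest peak (limma, adjusted p = 0.220 and 0.263). By the longest peak the difference on chromosome 15 was -0.97 (limma, adjusted p = 0.121). All 5 of these narrowed regions had a peak in all 5 WT livers, whereas the 5 widened ones had a peak in 5, 1, 5, 1 and 5 WT livers. Lists of equal length held no region shared by all animals at the named regions on chromosomes 2, 3, 8 and 16. The same held for the widened one on chromosome 7. Their differences were therefore not tested in such lists.

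The called regions were spread over the chromosomes. Widened regions made up the highest share on chromosome 15, with 7 of 587 shared regions (1.19%), followed by chromosome 7 with 10 of 887 (1.13%), chromosome 18 with 5 of 447 (1.12%) and chromosome 17 with 7 of 659 (1.06%). Chromosomes 3 and 13 had none. Narrowed regions numbered at most 4 on a chromosome, the 4 being on chromosome 13, and no called narrowed region lay within 100 kb of another. Of the widened regions, 5 of 70 lay within 100 kb of another.

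Regions present in one group and absent from the other were far more often lost than gained in the nodules. A region was called gained when all 5 HCC samples and no inflamed liver had a peak, and lost in the reverse case. There were 60 gained regions (0.11% of all merged regions) and 736 lost regions (1.34%). Fisher's exact test of presence in 5 against 5 animals cannot give a p below 0.00794 at a single region, and after adjustment over the 41580 regions with a peak in 1 to 9 animals none passed (smallest adjusted p = 0.415). At an unadjusted p below 0.05, which takes in a peak in 4 against 0 or 5 against 1 animals, the wider lists held 364 gained (0.875%) and 2719 lost regions (6.54%). The counts are therefore descriptions of these 10 lists.

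The excess of losses depended on the lists. Lists cut to the same number of peaks, the 26235 best by score, gave 67 gained and 412 lost regions. Without HCC animal 124711 there were 224 gained and 871 lost regions, so that losses exceeded gains 3.89 times rather than 12.3 times. Without HCC animal 125279 there were 1424 lost regions, and without inflamed animal 148990 there were 1350. Gained regions numbered 101 without HCC animal 123206 and 110 without 123390.

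Gained and lost regions were made of peaks of lower rank. The median within-list score percentile of their peaks was 33.5 for gained and 32.7 for lost regions, against 52.5 for all merged regions and 77.7 for regions shared by all 10. Gained regions had a median width of 5376 bp and lost regions of 3460 bp, against 3425 bp for all merged regions and 6798 bp for shared regions. The gained regions covered 0.380 Mb in all and the lost regions 2.90 Mb.

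Lost regions lacked a peak in WT liver more often than merged regions at large, and gained regions only a little more often. The WT lists played no part in choosing these regions. Of the 60 gained regions, 31 had a peak in no WT liver (51.7%) and 6 in all 5. Of the 736 lost regions, 484 had a peak in no WT liver (65.8%) and 17 in all 5. In the wider lists, 44.0% of gained and 62.7% of lost regions had a peak in no WT liver. In comparison, 42.6% of all merged regions and 0.524% of the shared regions had a peak in no WT liver, and 91.6% of the shared regions had one in all 5. The WT mice were of the same ages as the mice with nodules.

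The gained regions with the most evenly large peaks were chr18:9502250-9510005 and chr15:88657165-88664689. The first was covered over 6750, 7356, 7756, 6850 and 6819 bp in HCC animals 124711, 125278, 125279, 123206 and 123390 and over 0 bp in every inflamed liver, and 1 of the 5 WT livers had a peak. The second was covered over 6859, 6625, 7142, 7315 and 6787 bp in the nodules, and all 5 WT livers had a peak there. Among these 15 animals the first was thus seen in all nodules and 1 WT liver, whereas the second was missing from the inflamed livers alone.

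The next were chr19:47501285-47508875, with 5747 to 7415 bp in the nodules and a peak in all 5 WT livers, and chr18:7698576-7712148, with 4983 to 9734 bp and a peak in no WT liver. The widest was chr7:149733311-149766944. It was covered over 5592 and 8590 bp in 124711 and 125278 and over 26451, 33087 and 32636 bp in 125279, 123206 and 123390, and no WT liver had a peak. Here 3 nodules carried a broad domain and the others only a part of it.

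The lost region with the largest peaks was chr2:20333747-20344805, covered over 10787, 8549, 10585, 9696 and 9661 bp in the inflamed livers and in no nodule. Its peaks ranked between the 69.0 and 92.0 percentile of the score within each inflamed list, and 3 of the 5 WT livers had a peak. At chr18:66382483-66395339 the inflamed livers held 10755, 12661, 10745, 8488 and 8945 bp, and no WT liver had a peak. At chr2:127212162-127223289 they held 8186 to 10964 bp, and all 5 WT livers had a peak, so this region was missing from nodules alone.

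The other lost regions of this size were chr11:8686270-8703576, with 7598 to 17234 bp in inflamed livers and no WT peak, and chr7:139448910-139457094, with 7576 to 8062 bp and a peak in 1 WT liver. The 5 lost regions thus ranged from acetylation seen in the inflamed livers only to acetylation seen in all non-tumour livers.

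Most gains belonged to 1 nodule, and losses were shared more widely. Of the 15509 regions without a peak in any inflamed liver, 11346 (73.2%) had a peak in a single nodule, 2914 in 2, 917 in 3, 272 in 4 and 60 in all 5. Of the 24754 regions with a peak in all inflamed livers, 13161 (53.2%) were kept by every nodule, 5135 (20.7%) were absent from 1, 2731 from 2, 1825 from 3, 1166 from 4 and 736 from all 5. Regions of a single nodule were narrow, with a median of 2217 bp, and low in rank, with a median score percentile of 17.6, and 82.3% of them had no peak in WT liver.

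**Figure D3:**
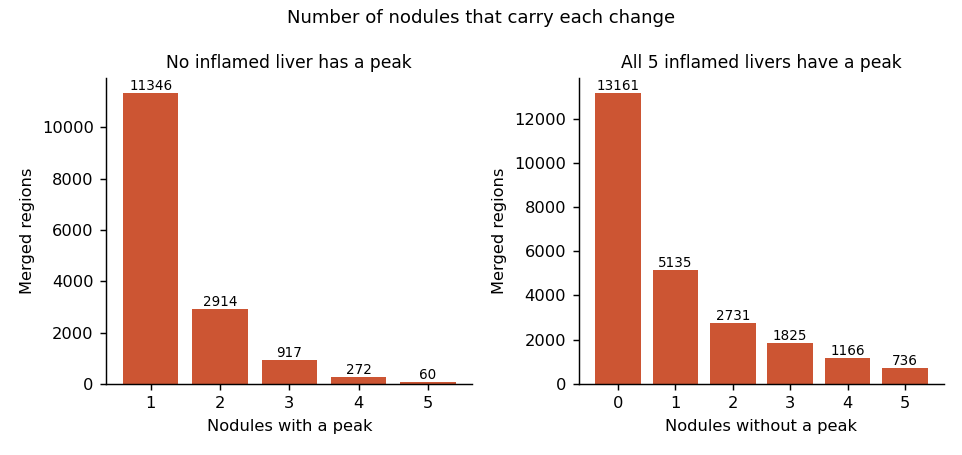
Number of merged regions (y axes) by the number of nodules that carry a change (x axes), for regions without a peak in any inflamed liver (left, nodules with a peak) and regions with a peak in all 5 inflamed livers (right, nodules without a peak). Gains fall from 11346 regions in 1 nodule to 60 in all 5, and losses from 5135 regions in 1 nodule to 736 in all 5.

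The nodules carried these changes unequally. Animal 125279 had a peak in 6635 of the regions without an inflamed peak, 4210 of them its own, and animal 124711 in 2261, of which 1248 were its own. Conversely 124711 lacked a peak in 8139 of the regions that all inflamed livers had, 125279 in 1740. Of the 5135 regions absent from 1 nodule, 2990 were absent from 124711 and 1444 from 123390. Of the 272 gains found in 4 nodules, 160 were missing from 124711. Of the 1166 losses found in 4 nodules, 682 were kept by 125279 and 43 by 123390.

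Regions chosen without a given nodule were then looked up in it. For gains, the regions had a peak in the other 4 nodules and in no inflamed liver. The left-out nodule carried 27.3% of 220 such regions in 124711, 78.9% of 76 in 125278, 72.3% of 83 in 125279, 61.2% of 98 in 123206 and 63.2% of 95 in 123390. The mean was 60.6 ± 19.9% (SD, n = 5), beside 15.4 ± 5.56% of the regions with no inflamed peak and a peak in at least 1 of the other nodules, so each nodule carried recurrent gains more often than gains at large. For losses, the left-out nodule also lacked 84.7, 74.8, 51.9, 92.5 and 94.5% of the regions absent from the other 4 nodules, in the same order of animals. Their mean was 79.7 ± 17.3% (SD, n = 5), beside 19.7 ± 10.4% of all regions with a peak in every inflamed liver. The nodules share the 5 inflamed livers as their comparison, so the 5 shares are not independent.

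Pairs of nodules shared changes that no other nodule had. The largest number of gains found in exactly 2 nodules was 719, in 125278 and 123390, followed by 643 in 125279 and 123206. The fewest were 84, in 124711 and 123206. Losses were paired differently. Of the regions absent from exactly 2 nodules, 1024 were absent from 124711 and 123206, the pair with the fewest gains, and 5 from 125278 and 125279.

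The chromosomes took up nearly the same shares of the covered length in every inflamed liver. The nodules departed from these shares, on some chromosomes most of them in the same direction and on others singly. No chromosome differed between the groups after adjustment over 19 chromosomes (exact permutation tests, two-sided). The smallest p was for chromosome 19, with 3.54 ± 0.0485% in inflamed livers and 3.64 ± 0.0722% in HCC (SD, n = 5 each; exact permutation p = 0.0238, adjusted p = 0.452). Chromosome 18 held 3.29 ± 0.0510% and 3.51 ± 0.258% (SD, n = 5 each; exact permutation p = 0.0476, adjusted p = 0.452). Its HCC values were 3.27, 3.93, 3.37, 3.40 and 3.59%, so that 124711 lay within the inflamed range of 3.22 to 3.35% and the other nodules above it.

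Single nodules fell outside the range of the 5 inflamed livers on most chromosomes, 17 of 19 in 124711 and in 123390, 15 in 123206, 13 in 125279 and 12 in 125278. Chromosome 15 was the steadiest in inflamed livers, at 4.46 to 4.49%. It reached 5.27% in 124711 and 5.20% in 125279, and was 4.50, 4.49 and 4.24% in 125278, 123206 and 123390. Both nodules with a high share also had wider shared regions on chromosome 15 than on their other chromosomes, by 0.12 and 0.098 on the log2 scale, where the inflamed livers lay between -0.011 and 0.0049.

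Chromosome 12 took up 3.30% in 125279, against 3.87 to 3.93% in inflamed livers. Chromosome 1 took up 7.10, 6.90, 7.09 and 7.00% in 4 nodules and 5.47% in 124711, against 6.33 to 6.58% in inflamed livers. Chromosome 16 took up 3.75, 3.89, 3.72 and 4.07% in the same 4 nodules and 3.22% in 124711, against 3.52 to 3.70%. The high share of chromosome 1 in 123206 includes its window at 135 to 140 Mb, described below. That window held 1562 kb in 123206, against 707 to 792 kb in inflamed livers. In 124711 chromosome 11 reached 9.01%, against 7.29 to 7.79%, and chromosome 13 fell to 3.34%, against 4.33 to 4.60%. Chromosome 13 in 124711 thus had the lowest ratio to the inflamed mean of any nodule and chromosome, 0.750.

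**Figure D4:**
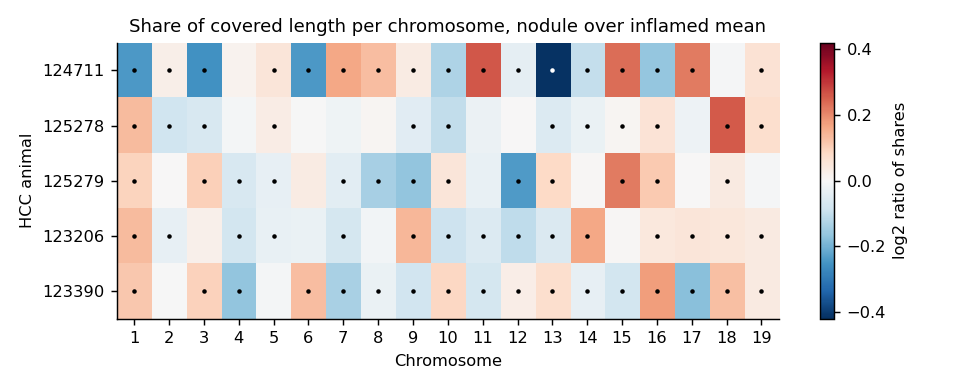
Log2 ratio of the share of covered length on each chromosome (x axis) in each HCC animal (y axis) to the mean share of the 5 inflamed livers, in red above and in blue below, with a dot where the nodule lies outside the inflamed range. The ratio of the shares reaches 0.750 on chromosome 13 of animal 124711, and chromosome 15 is raised in 124711 and 125279.

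Regions of a single nodule were also gathered on particular chromosomes. In 123206, 224 of its 1481 own regions (15.1%) lay on chromosome 1 and 189 (12.8%) on chromosome 9, which hold 7.45% and 5.52% of all merged regions. Of these, 58 on chromosome 1 and 65 and 3 on chromosome 9 lay in the runs of 100 kb bins described below. In 125278, 169 of 2102 own regions (8.04%) lay on chromosome 18, which holds 3.58% of all merged regions. In 125279, 273 of 4210 (6.48%) lay on chromosome 15, which holds 4.38%. Of the 60 regions gained in all nodules, 9 lay on chromosome 18 and 9 on chromosome 5, and of the 736 lost regions 70 lay on chromosome 5, which holds 6.18% of all merged regions.

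Part of the lost regions, and a smaller part of the gained ones, lay in runs. In the wider lists, 54.3% of the 2719 lost and 21.4% of the 364 gained regions had another of their list within 100 kb, and the lost list was longer. Runs of 3 or more with gaps of at most 100 kb numbered 216 for losses, holding 861 regions, and 8 for gains, holding 26. In the strict lists 36.5% of the 736 lost and 18.3% of the 60 gained regions had a neighbour. Directly adjoining merged regions of 1 list formed 472 pairs for losses, a list of 4.97% of all merged regions, and 17 for gains, a list of 0.665%. No test was made of these values, which rise with the length of a list, and 98.1% of all merged regions had another within 100 kb.

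The run with the most losses, 11 lost regions, spanned 269 kb on chromosome 2 (chr2:20197123-20466037) and contained the lost region with the largest peaks. Peaks covered 63478, 55678, 71540, 52229 and 54517 bp of the span in the inflamed livers, and 6082, 9354, 19438, 7105 and 8037 bp in HCC animals 124711, 125278, 125279, 123206 and 123390. All nodules were below all inflamed livers, and 125279 kept 3 of the 11 regions while the others kept none. The WT livers had a peak in 1, 2, 3, 1 and 0 of the 11.

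A run of 10 lost regions on chromosome 1 (chr1:137247637-137422980) was covered over 49580, 38617, 54037, 41062 and 32259 bp in the inflamed livers and over 7090, 8635, 6097, 2189 and 8532 bp in the nodules. A single one of its 10 regions was kept by a single nodule, 125278, and 4 of the 5 WT livers had none. The peaks of these 10 regions were thus nearly all in inflamed livers. Another run of 10 regions over 390 kb on chromosome 3 (chr3:51455474-51845471) differed in that 125279 kept 7 of its regions. It was covered over 54067 to 65985 bp in inflamed livers, over 62424 bp in 125279, and over 6888, 14966, 10030 and 9616 bp in 124711, 125278, 123206 and 123390.

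The gained runs were shorter. The one with the most regions lay on chromosome 1 (chr1:158737664-158864874) and had 5 gained regions. All 5 were present in 125278, 125279 and 123390, 3 in 123206 and 2 in 124711, and the span was covered over 3355 to 38849 bp in nodules and 0 to 2006 bp in inflamed livers. On chromosome 17 (chr17:56189377-56203033) 3 regions, 2 of them gained in every nodule, were covered over 5762, 7608, 7163, 8638 and 8689 bp in the nodules and over 0 bp in inflamed livers, and no WT liver had a peak in any of them. On chromosome 15 (chr15:55004074-55032867) 3 regions were covered over 1234 bp in 124711 and 13822 to 19430 bp in the other 4 nodules, and over 0 bp in inflamed livers, while each WT liver had a peak in 1 or 2 of them.

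Covered length was next compared in windows of 5 Mb, each animal scaled to its total. Of 490 windows tested with limma, none passed an adjusted p of 0.05, and the smallest was 0.0853. At an unadjusted p below 0.05, 18 windows were higher and 53 lower in HCC. Without HCC animal 124711, 8 windows were called higher and 11 lower, and without 125279, 4 and 14. In windows of 2 Mb, 6 were called higher and 22 lower.

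The adjoining windows at 5 to 10 Mb and 10 to 15 Mb of chromosome 18 had the smallest p among higher windows. The first held 256, 228, 303, 225 and 262 kb under peaks in the inflamed livers and 250, 635, 359, 353 and 516 kb in HCC animals 124711, 125278, 125279, 123206 and 123390 (scaled log2 difference 0.72 ± 0.159, SE; limma, adjusted p = 0.0853). Unscaled, 124711 lay within the inflamed range and the other 4 nodules above it, and after scaling all 5 nodules lay above all inflamed livers. The second held 370 to 446 kb in inflamed livers and 420 to 768 kb in the nodules (scaled log2 difference 0.55 ± 0.125, SE; limma, adjusted p = 0.0853). Without 124711 the adjusted p was 0.0309 and 0.0428, and without 125279 it was 0.0135 and 0.00524. Unscaled it was 0.936 and 0.866, and without any 1 inflamed liver 0.179 to 0.280 in both windows (limma). Both gained regions named on chromosome 18 lie in the first of these windows.

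The other higher windows with the smallest p were at 0 to 5 Mb of chromosome 16 and at 120 to 125 Mb and 85 to 90 Mb of chromosome 1 (scaled log2 differences 0.44, 0.34 and 0.28; limma, adjusted p = 0.0853, 0.110 and 0.128). Among lower windows the smallest p was at 65 to 70 Mb of chromosome 16, a window with few peaks, which held 14.6 to 26.0 kb in inflamed livers and 4.23 to 14.8 kb in HCC (scaled log2 difference -1.14 ± 0.229, SE; limma, adjusted p = 0.0853). It was followed by 70 to 75 Mb of chromosome 17, 135 to 140 Mb of chromosome 7, 80 to 85 Mb of chromosome 8 and 40 to 45 Mb of chromosome 11, with scaled log2 differences of -0.38, -0.37, -0.64 and -0.60 (limma, adjusted p = 0.0853 each). Without HCC animal 124711 these 10 windows had adjusted p between 0.0127 and 0.0489. Unscaled, their adjusted p lay between 0.785 and 0.936, and without any 1 inflamed liver between 0.179 and 0.324 (limma).

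After scaling to each animal's total, single nodules departed by 2-fold or more from every inflamed liver in few windows, with 1 exception. In 124711, 52 windows lay below every inflamed liver and none above, in a list that covered 91.4 Mb in all. Its longest runs, of 3 windows each, were 40 to 55 Mb of chromosome 2, with 69.0 kb against 384 to 572 kb in inflamed livers, and 10 to 25 Mb of chromosome 6, with 89.4 kb against 317 to 450 kb. Of its 6 runs of 2 windows, the one at 75 to 85 Mb of chromosome 4 held 85.0 kb against 291 to 383 kb. The other 4 nodules had between 0 and 3 windows above and between 1 and 3 below.

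Of the windows above, 2 that were far off belonged to 123206. The window at 5 to 10 Mb of chromosome 9 held 143, 124, 161, 120 and 155 kb in the inflamed livers, 32.7, 183, 166 and 125 kb in 124711, 125278, 125279 and 123390, and 1266 kb in 123206. The window at 135 to 140 Mb of chromosome 1 held 707 to 792 kb in inflamed livers and 1562 kb in 123206, and 482 to 827 kb in the other nodules.

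To find such segments, bins of 100 kb were sought that 1 animal covered over at least 50% and no inflamed liver did, or, for an inflamed liver, none of the other 4. This rule was set after the windows had been seen. Inflamed livers had 1 to 23 such bins and no 2 in a row. Nodules had 52 to 407, with 3 or more in a row at 13 places, 8 of them in 123390, 3 in 123206 and 2 in 125279. Animal 123390, with its broad peaks, had 407 such bins and none of its runs exceeded 3, whereas 123206 had 91 bins and runs of 9 and 6.

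The longest run covered 900 kb of chromosome 9 (chr9:6700001-7600000). Peaks covered 702 kb of it (78.0%) in 123206, 7.11 to 11.2 kb in the inflamed livers and 3.92 to 24.2 kb in the other nodules. Animal 123206 had 74 peaks there, of which 65 lay in regions with no peak in any other of the 10 animals, and the inflamed livers had 3 to 5 peaks. By their medians the peaks were wide and strong, with a width of 6556 bp and a score of 815, against 3497 bp and 449 over its whole list. Of these peaks, 39.2% scored below the median of the list. A run of 300 kb farther along (chr9:7800001-8100000) was covered over 236 kb in 123206 and 44.5 to 52.1 kb in inflamed livers.

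The next longest run covered 600 kb of chromosome 1 (chr1:138900001-139500000), with 417 kb (69.5%) under peaks in 123206, 13.8 to 19.7 kb in inflamed livers and 5.02 to 41.7 kb in the other nodules. Of its 68 peaks in 123206, 58 lay in regions of that animal alone. These peaks were weak, unlike those on chromosome 9, with a median score of 146, and 86.8% of them scored below the median of the list. In lists of equal length the run on chromosome 9 was 7 bins and that on chromosome 1 was 3 bins, and in bins of 50 kb these 2 were the only runs of 6 or more bins in any animal. The edges of both runs follow from the 50% rule. In the bins directly beside them 123206 also lay above every inflamed liver.

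**Figure D5:**
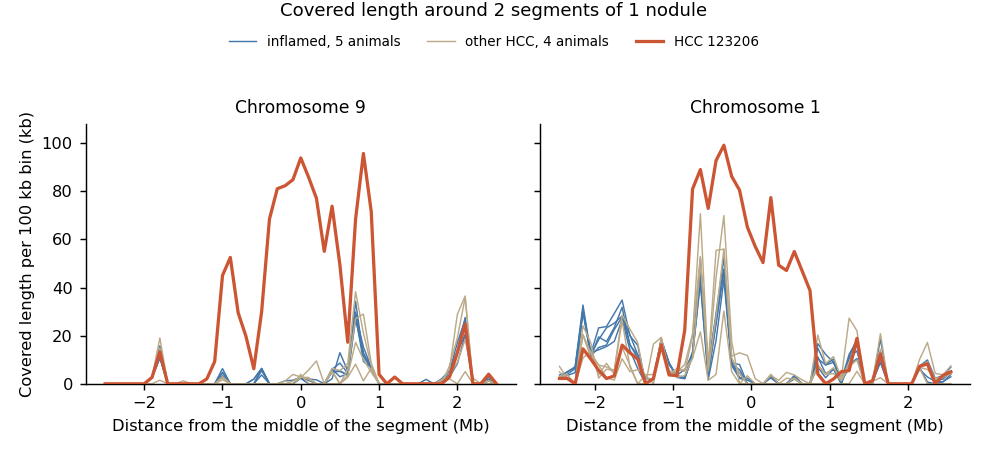
Covered length per 100 kb bin in kb (y axes) along chromosomes 9 and 1, against the distance in Mb from the middle of the longest runs of HCC animal 123206 (x axes), with 123206 in thick red, the other 4 HCC animals in brown and the 5 inflamed livers in blue. In 123206 the covered length is raised over both runs, with 702 kb of the 900 kb run on chromosome 9. It stays raised in bins beyond the runs on both sides, and farther out it falls to about the level of the inflamed livers.

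The runs of 125279 were 2 neighbouring stretches of chromosome 8 (chr8:10800001-11100000 and chr8:11200001-11500000), covered over 206 and 225 kb, against 63.3 to 77.4 kb and 105 to 125.7 kb in inflamed livers. These were regions that the inflamed livers also had, wider in this nodule, since 5 of 24 and 5 of 15 merged regions were its own. The runs in 123390 were all 300 kb long and were 1.54 to 2.66 times the inflamed mean, on chromosomes 1, 5, 6, 10, 13 and 16.

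Genes could be named only at 4 loci. In the window of Cyp2c37, a cytochrome P450 gene of the Cyp2c family, a region at chr19:40062625-40068549 had no peak in inflamed livers and was covered over 787 bp in 125278 and 5925 bp in 123390. At Cyp4a14, which encodes a fatty acid hydroxylase, the region chr4:115164596-115173274 was covered over 1543 to 2436 bp in inflamed livers, 0 bp in 124711 and 2498 to 8679 bp in the other nodules. At Epcam, an epithelial marker of bile ducts and progenitor cells, the region chr17:88034776-88037173 was covered in 2 inflamed livers and in no nodule.

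Abcc4, which encodes an export pump of bile acids and drug conjugates, had 8 merged regions in its window. Of these, chr14:119132034-119154376 had no peak in inflamed or WT livers and was covered over 1527, 2374, 17699 and 22343 bp in 124711, 125278, 123206 and 123390, and over 0 bp in 125279. Another 2 had a peak in all 10 animals. Their covered length did not differ at an adjusted p of 0.05, with log2 differences of 0.58 ± 0.541 and 0.41 ± 0.187 (SE; limma, adjusted p = 0.755 and 0.437). A further 2 of the 8 regions were acetylated in each inflamed liver and in every nodule but 124711.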

How the data were processed

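H3K27Ac ChIP-seq of 5 inflamed livers and 5 HCC samples was analysed, and an IgG control was not analysed here. The submitters' processing notes name Bowtie 0.12.7, MACS 1.4 and the genome build mm9. The authors called peaks per animal and deposited the position of each peak and the peak caller's score, which runs from 50 to 3233.06 on a scale not given in the sources used here, with ties at 3100 in 9.65 to 24.6% of a list. Scores were used only within a list. Read counts were not among the files used, so depth is unknown, and a list's length can change every presence and width.

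Peaks overlapping by at least 1 bp on chromosomes 1 to 19 were merged. List, shared-region and chromosome values were tested by exact permutation of the group labels on the difference of means (two-sided, smallest p 0.00794 for 5 against 5), presence by Fisher's exact test, and log2 covered length per shared region and per 5 Mb window (pseudocount 1000 bp, scaled to each animal's total, mean of at least 5000 bp) by limma 3.58.1 with a trend (R 4.3.3), all with Benjamini-Hochberg adjustment. Separate animals are the replicates.

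Named shared regions were the 5 with the largest difference in each direction among those called. Gained and lost regions were the 5 of each whose smallest peak was largest, and runs the 3 with the most members. Windows were the 5 with the smallest p in each direction. For single nodules they were the 3 longest runs of windows 2-fold or more off every inflamed liver after scaling. The last of these was the first of 6 equal runs in chromosome order. The windows of 123206, the segments of 100 kb bins and the nodules' other named chromosomes were chosen after their values were seen. The comparison, lists and rules were chosen with earlier results of these data known. Planned annotation of genes was not done for lack of an annotation of the build, and gene names come from the 4 loci drawn as snapshots in the study. Computation used Python 3.11.15, NumPy 2.4.6, SciPy 1.17.1, pandas 2.3.3 and matplotlib 3.10.9. Alternatives were equal or halved lists, wider merging, stricter presence, other widths, scalings and windows, and leaving out each animal.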

Additional observations from a re-analysis of the deposited data

Results flagged for a closer look

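In 94 groups of 5 values, 4 had an animal whose gap to the next exceeded Dixon's 95% limit, where chance flags about 1 in 20. All 4 were nodules. Animal 123390 held 39.4% of its covered length in peaks of 10000 bp or more. Animal 124711 had a low share on chromosome 1 (5.47%), a high share on chromosome 11 (9.01%) and the lowest covered length of the narrowed region on chromosome 18 (3555 bp). Chromosome Y, which entered no comparison, had 13 peaks in 124711 and 0 in every other animal of both groups. Chromosome X, also left out, had 448 peaks in 124711, 631 to 873 in the other nodules and 713 to 846 in inflamed livers. The labels do not give sex, and its part in the results was not tested.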

How the results depend on the processing

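The depth of the libraries is unknown, and the length of a list limits every presence and width. The groups' difference in covered length, -2.85 Mb, was 7.90 Mb in equal lists, 0.796 Mb in the better-scored 50% of each list and -10.4 to 9.82 Mb without 1 animal. At shared regions the difference of 4.94 Mb ranged from -0.558 to 12.1 Mb without 1 animal, and that of the median shared region, 196 bp, ranged from -57.6 bp (without HCC animal 123390) to 506 bp (without 124711). None of these differences passed the exact permutation test, and the cause of the change in direction was not tested. Shared regions called wider numbered 35 in the better 50%, with 6 narrower (85.4% wider, against 71.4% in full lists), and 15 were narrower in equal lists. Without 1 animal they numbered 31 to 477 wider and 5 to 85 narrower. Gained regions numbered 23 in the better 50% and 62 to 224 without 1 animal, and lost regions 412 in equal lists, 208 in the better 50% and 775 to 1424 without 1 animal. The wider gained list held 144 regions in the better 50%, 576 where a peak had to cover 50% of the region and 386 to 1114 without 1 animal. The wider lost list held 1337 in equal lists, 926 in the better 50% and 2874 to 4700 without 1 animal. Windows of 2 Mb gave 6 higher and 22 lower, and leaving out 1 animal gave 0 to 8 and 0 to 14. Regions with a neighbour fell to 16.7% of gains in equal lists and 14.0% within 50 kb, and to 44.3% of losses in equal lists, 51.3% when peaks within 1000 bp were merged, 43.8% within 50 kb and 36.5% in the strict list. The share of chromosome 19 was lower in HCC by -0.0671 percentage points in the better 50%. No chromosome passed under any alternative. Runs of covered bins in nodules numbered 2 in bins of 50 kb. No paired analysis was possible because the labels pair no animals between the groups, and the replicate numbers used here only follow the order of the records.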
